A study of Mus musculus with 12 samples.

Results

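The genes described here are the nuclear-encoded genes of oxidative phosphorylation, taken by symbol from a liver RNA sequencing table of 46078 genes. A row was taken where its Ensembl identifier maps to a protein-coding symbol that starts with Nduf, Uqcr, Atp5, Cox4, Cox5, Cox6, Cox7 or Cox8, or that is Sdha, Sdhb, Sdhc or Sdhd. Of 94 such genes in the annotation, 93 had a row, namely 46 of complex I, 4 of complex II, 8 of complex III, 18 of complex IV and 17 of complex V. The rule uses symbols only and no measured value, though it was set with earlier results of these data known. The symbols also bring in genes that are not structural subunits: 8 Ndufaf genes, which encode assembly factors of complex I, and Atp5s, a small mitochondrial protein that is named for the ATP synthase but is not one of its subunits. Ndufa4 is kept under its Nduf symbol although its protein is known as a subunit of complex IV. Cox7a2l is kept under complex IV although its protein is best known for joining complexes III and IV into supercomplexes. The complex III gene Cyc1 is not covered by these symbols.

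RNA was taken from the livers of 12 male C57BL/6 mice aged 21 weeks with diet-induced obesity, and all 12 had undergone surgery under the same high fat feeding. The 4 VSG mice had a vertical sleeve gastrectomy, an operation that removes most of the stomach. The 4 Sham-WM mice had a sham operation, followed by food restriction that held them at the weight of the VSG mice. The 4 Sham-Ad lib mice had the sham operation and ate freely. Each mouse gave 1 library of poly(A) RNA, named here by its animal number, and libraries held between 15122520 and 19384076 counts on genes. Levels are in CPM, the counts of a gene relative to the total of its library, after scaling by edgeR's trimmed mean of M values (TMM).

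Oxidative phosphorylation is carried out by 5 protein complexes of the inner mitochondrial membrane. Complexes I (NADH dehydrogenase) and II (succinate dehydrogenase) pass electrons to ubiquinone, complex III hands them on to cytochrome c, and complex IV (cytochrome c oxidase) passes them to oxygen. Complexes I, III and IV pump protons as they do so, and complex V (ATP synthase) uses the returning protons to make ATP. Complexes I, III, IV and V also hold subunits encoded by the mitochondrial genome, while complex II is encoded by the nucleus alone. The liver relies on these complexes to burn fatty acids and to pay for glucose production. All 37 genes of the mitochondrial chromosome were at 0 counts in all 12 libraries of the table, 13 of them protein coding, so the mitochondrial share of the complexes was not analysed here.

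A single VSG library, 11F, stood apart from the others in these genes. The median log2 difference of the 87 members tested from the Sham-Ad lib mean was 0.88 in 11F, against 0.11 in 1F, -0.21 in 8F and 0.14 in 18F. In the Sham-WM libraries the same median was 0.20 in 2F, 0.24 in 9F, -0.11 in 15F and -0.02 in 16F, and in the Sham-Ad lib libraries it lay between -0.06 and 0.09. The members took 1.80% of the TMM-scaled counts in 11F, and between 1.00% and 1.41% in the other 11 libraries. Library 11F also had the lowest total, 15122520 counts, and the lowest TMM factor, 0.879. The medians of VSG and the members called are given with and without it.

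**Figure D1:**
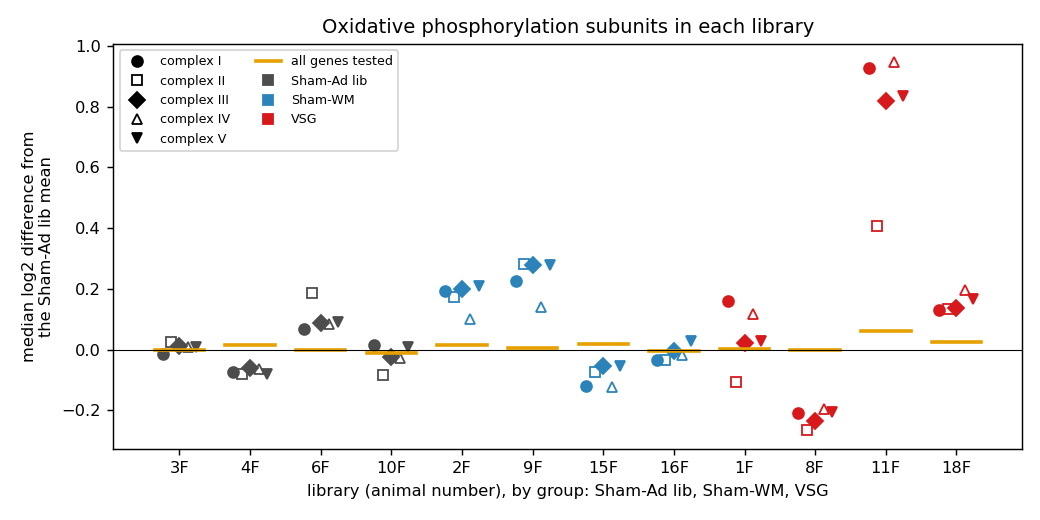
Median log2 difference of the subunits of each complex from the Sham-Ad lib mean (y axis) in each of the 12 libraries (x axis), coloured by group, with the median of all genes tested as a yellow bar. In library 11F complexes I, III, IV and V sit between 0.82 and 0.95 and complex II at 0.41, while in each of the other 11 libraries every complex lies between -0.27 and 0.28.

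Markers of several, but not all, other cell types moved with the groups as well. The 8 neutrophil genes listed summed to between 14.8 and 425 CPM in Sham-Ad lib, between 9.64 and 49.5 CPM in Sham-WM and between 122 and 4166 CPM in VSG. The 10 Kupffer cell genes summed to between 202 and 646, 177 and 297, and 659 and 1828 CPM in the same order, and all 10 were higher in VSG than in Sham-WM, as were all 6 neutrophil genes that could be tested. No gene of these 2 lists was at 0. Markers of B and plasma cells summed to between 14.4 and 33.0, 12.1 and 35.2, and 57.3 and 205 CPM, with 5 of the 7 tested higher in VSG than in Sham-WM, and 3 of the 4 T and NK cell markers tested were higher too. The 7 hepatocyte markers in the table, high in every library as in liver, summed to between 107600 and 123500 CPM in Sham-Ad lib, 122000 and 149000 CPM in Sham-WM and 84430 and 124800 CPM in VSG, with 1 higher and 2 lower in VSG than in Sham-WM. Of the markers tested, none of 5 for cholangiocytes, 6 for red blood cells, 2 for adipocytes and 1 for pancreas was called between VSG and Sham-WM. Of 8 stellate cell markers 1 was higher and 2 lower, and of 8 endothelial markers 1 was lower. In 11F the neutrophil sum was 1418 CPM and the Kupffer cell sum 880 CPM. Library 11F had the highest sum of all 12 for red blood cells (730 CPM) and pancreas (37.7 CPM). It had the lowest for stellate cells (253 CPM) and endothelial cells (147 CPM). The part of these cells in the results for the members was not tested. In bulk liver, fewer cells of a type and less RNA per cell cannot be told apart.

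Of the 93 members, 87 passed edgeR's filter on low counts, with 78 of them structural subunits. The 6 that did not pass were Cox4i2, Cox6a2, Cox6b2, Cox7b2, Cox8b and Cox8c, which are known from muscle, testis or lung rather than from liver. Cox7b2 and Cox8c were at 0 counts in all 12 libraries, and the other 4 did not exceed 0.36 CPM in any library.

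Levels per length, in CPM per kilobase of merged exons and averaged over the 12 libraries, differed widely between members of a complex. Complex V held the highest, with 335 for Atp5a1 and 289 for Atp5b, the alpha and beta subunits that form the catalytic head of the enzyme. In complex IV the highest levels per length were 279 for Cox6b1, 262 for Cox8a and 255 for Cox6a1, and the lowest among those tested was 1.95 for Cox7a1. The 8 complex III genes ran from 59.7 for the core protein gene Uqcrc1 to 155 for Uqcr11. The 4 complex II genes ran from 58.8 for the membrane anchor Sdhc to 168 for the other anchor, Sdhd. Complex I ran from 1.12 for Ndufb2 to 181 for Ndufa4, and the 8 assembly factors of complex I were all below 20. The median level per length was 42.7 over the 46 complex I genes tested, 112.3 over complex II, 136 over complex III, 118 over complex IV and 78.0 over complex V. The order depends on the length used: merged exons of some genes hold retained introns, and with the length of the transcript that has the longest coding part, a choice made after seeing the data, Atp5b (639) and Uqcrq (635) came first and Ndufa4l2 (1.99) last, with a Spearman correlation of 0.78 between both orders over the 87 genes. With that length the medians were 78.6, 171, 200.4, 208 and 242 from complex I to V, so that complex V moved from the second lowest to the highest, and complex III ran from 141 to 635. The order of mean CPM of the 87 members was nearly the same in the 3 groups, with a Spearman correlation across genes of 0.99 between Sham-Ad lib and Sham-WM, 0.99 between Sham-Ad lib and VSG and 0.98 between Sham-WM and VSG. Genes are not independent replicates, and these values describe the groups only.

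**Figure D2:**
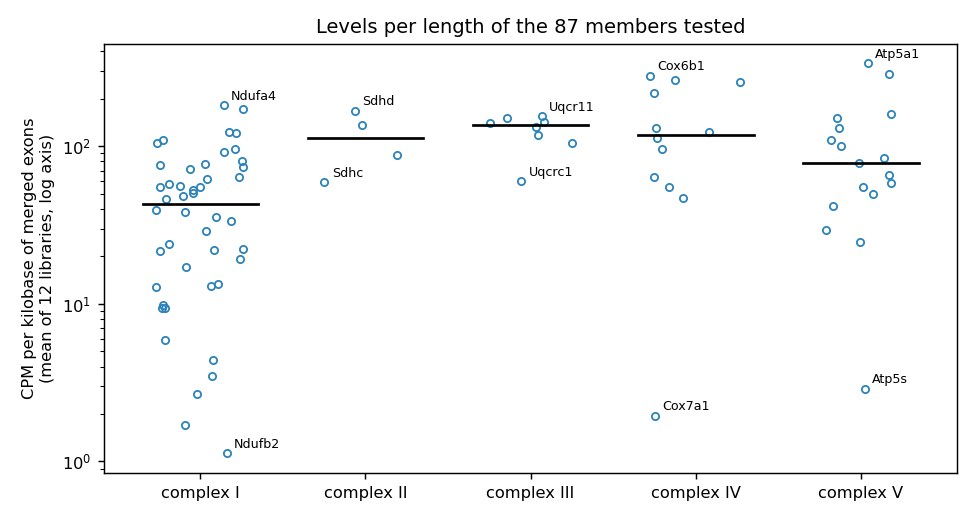
Level of each of the 87 members tested in CPM per kilobase of merged exons (y axis, log scale, mean of 12 libraries), by complex (x axis), with the median of each complex as a bar and the lowest and highest member named. Complex III spans from 59.7 to 155, while complexes I, IV and V each reach below 3.

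Nuclear genes of the complexes are known to share transcription factors, among them NRF1 and the ETS factor GABP. The 250 bases before the RefSeq start were searched on both strands for letters of 5 known motifs, in 32851 windows of the genome and in 76 windows that belong to 71 of the 87 members tested. The NRF1 letters CGCATGCG stood in 10.5% of the members' windows and in 1.55% of all windows. The ETS letters CCGGAAG stood in 18.4% against 6.91%. The letters AAGGTCA of the estrogen-related receptors stood in 6.58% against 4.08%, those of the E-box, CACGTG, in 7.89% against 6.02%, and those of YY1, AAGATGG, in 1.32% against 4.49%. The NRF1 and E-box letters read the same on both strands, no motif holds the letters of another, and a match is a description of the letters, not a site. The 8 members with the NRF1 letters were Atp5g2, Atp5j, Atp5k, Atp5l, Cox6a1, Ndufa11, Ndufa8 and Ndufaf4. The part of the window that lies outside every annotated exon is shown for 3 members from RefSeq, build GRCm38.p6, minus strand, 5′ to 3′, with matching letters in capitals. Cox6a1 is shown for NRF1, Uqcrh for ETS, and Cox7a2l as the subunit with the smallest adjusted p between VSG and Sham-WM, whose window held none of the 5 motifs. The stretches are chr5:115348982-115349129 for Cox6a1, chr4:116075072-116075268 for Uqcrh and chr17:83514334-83514583 for Cox7a2l. The last starts at a RefSeq start that lies inside the longer GENCODE gene.
Cox6a1: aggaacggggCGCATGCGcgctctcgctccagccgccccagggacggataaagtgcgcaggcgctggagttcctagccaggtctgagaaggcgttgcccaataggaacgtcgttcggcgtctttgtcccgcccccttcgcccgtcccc
Uqcrh: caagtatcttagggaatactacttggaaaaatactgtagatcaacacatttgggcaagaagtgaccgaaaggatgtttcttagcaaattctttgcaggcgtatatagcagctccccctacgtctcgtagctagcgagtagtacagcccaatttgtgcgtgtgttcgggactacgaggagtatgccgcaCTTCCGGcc
Cox7a2l: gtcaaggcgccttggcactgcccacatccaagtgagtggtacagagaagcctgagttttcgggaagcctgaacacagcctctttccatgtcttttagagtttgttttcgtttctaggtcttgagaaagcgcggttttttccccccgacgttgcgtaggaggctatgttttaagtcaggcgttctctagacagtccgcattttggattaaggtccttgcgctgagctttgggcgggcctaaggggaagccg
The NRF1 letters of Cox6a1 end 153 bases before the RefSeq start, and the ETS letters of Uqcrh, read on the other strand, end 3 bases before it.

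The first comparison asked what the operation did against free feeding after a sham operation. None of the 87 members passed edgeR's quasi-likelihood test between VSG and Sham-Ad lib at an adjusted p of 0.05, where 0.751% of all 13054 genes tested did. At an unadjusted p under 0.05 there were 11 members, or 12.6%, against 24.1% of all genes. By DESeq2 none passed after adjustment, where 5.31% of all genes fitted did, and 10 members passed before it. No member had groups that did not overlap, against 9.21% of all genes. Even so, 79 of the 87 log2 fold changes were positive, with a median of 0.29, where the median of all genes was 0.03. The median standard error of a member's log2 fold change was 0.19, so changes of the size of the median could not be told from 0 in single genes. By complex, the median log2 fold change of the subunits was 0.32 in complex I (38 genes), 0.09 in complex II (4), 0.24 in complex III (8), 0.32 in complex IV (12) and 0.25 in complex V (16). Without library 11F, 48 of 87 were positive and the median was 0.01, with complexes at 0.03, -0.08, -0.03, 0.04 and -0.00. None passed in that fit, where 0.521% of all genes did.

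The members with the smallest p in each complex differed in how much they rested on that library. Cox7a2l was at 94.98, 88.4, 89.9 and 103 CPM in Sham-Ad lib and at 128, 100, 135 and 110.97 CPM in VSG, with 1 VSG library inside the Sham-Ad lib range (log2 fold change 0.33, SE 0.11, edgeR adjusted p = 0.11, and 0.25 without 11F). Uqcrh, the hinge protein of complex III, was at 125, 122, 127 and 131 CPM in Sham-Ad lib and at 154, 121, 276 and 158 CPM in VSG, and its log2 fold change fell from 0.49 to 0.18 without 11F. Ndufs7, an iron-sulphur subunit of complex I, was at 42.2, 39.0, 43.4 and 43.9 CPM against 51.4, 38.9, 78.9 and 53.9 CPM, and its log2 fold change was 0.40, and 0.18 without 11F. In all 3 genes 8F was the lowest VSG library and 11F the highest. Atp5l, the g subunit of ATP synthase, was at 134, 126, 150.5 and 143 CPM against 175, 133, 291 and 169 CPM, and its log2 fold change of 0.47 (SE 0.19) became 0.19 (SE 0.13) without 11F. Sdha, the flavoprotein of complex II that oxidises succinate, went the other way, from 632, 561, 681 and 504 CPM in Sham-Ad lib to 393, 432, 400 and 588 CPM in VSG. There 3 of the 4 VSG libraries were below the lowest Sham-Ad lib library and 18F was above it (log2 fold change -0.39, SE 0.15, edgeR adjusted p = 0.14). Its value barely depended on 11F, at -0.35 without it, but without 18F Sdha was at -0.54 and passed, with an edgeR adjusted p of 0.034. In that fit 8.20% of all genes passed.

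When 2 factors of unwanted variation were estimated from residuals (RUVr), 30 members were higher and 1, Sdha, was lower in VSG than in Sham-Ad lib, which is 35.6% of members where 23.1% of all genes passed. That setting kept the members' median at 0.24. Factors from residuals take up spread within groups and leave differences between group means nearly unchanged. The share of all genes that passed was 0.751% without these factors, so calls rose well beyond the members. The RUVr calls and median therefore cannot decide whether the members' values in VSG rest on a single library.

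The second comparison asked what food restriction to the same weight did. Between Sham-WM and Sham-Ad lib 1 of 87 members passed, Atp5s, which was lower, where 6.99% of all genes passed and 3.45% were lower. At an unadjusted p under 0.05 there were 3 members, or 3.45%, against 21.6% of all genes, and 6 members, or 6.90%, had groups that did not overlap, against 17.6%. The members' median log2 fold change was 0.06, with all genes at 0.00, and 66 of 87 were positive. Medians by complex were 0.06, 0.08, 0.11, 0.03 and 0.10 from I to V.

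Atp5s was at 6.08, 6.98, 5.19 and 7.15 CPM in Sham-Ad lib and at 3.41, 4.25, 3.16 and 3.60 CPM in Sham-WM, so the groups did not overlap. It fell by 0.81 on the log2 scale (SE 0.16, edgeR adjusted p = 0.011), and it passed in each of the 12 fits that left out 1 library. Cox7a2l was next, at 79.8, 74.4, 67.8 and 66.0 CPM in Sham-WM, below every Sham-Ad lib library, with a log2 fold change of -0.39 (SE 0.11) and an edgeR adjusted p of 0.057. It passed in 8 of 23 alternatives, among them DESeq2 (adjusted p = 0.014) and the fit without 11F (edgeR adjusted p = 0.028). The other members whose groups did not overlap were higher in Sham-WM and did not pass: Ndufab1, the mitochondrial acyl carrier protein, Ndufaf5, an assembly factor, Ndufs7 and the low Cox7a1. Ndufaf5 was at 3.63, 4.51, 4.33 and 3.77 CPM in Sham-Ad lib and at 5.91, 6.09, 4.998 and 4.62 CPM in Sham-WM (log2 fold change 0.41, edgeR adjusted p = 0.25). Sdhd and Uqcrb had the smallest p of complexes II and III, with log2 fold changes of 0.20 and 0.24 and edgeR adjusted p of 0.53 and 0.51.

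The third comparison set surgery against food restriction at matched weight. Between VSG and Sham-WM 4 of 87 members passed, 4.60% where 26.9% of all genes did. Cox7a2l and Atp5s were higher in VSG, 2.30% of members where 15.0% of genes were higher, and Ndufs1 and Sdha were lower, where 11.9% of genes were lower. At an unadjusted p under 0.05 there were 15 members, or 17.2%, against 40.4% of all genes, and groups did not overlap for 3 members, or 3.45%, against 26.2%. The share of members that passed was thus below that of all genes by each of these counts. The median log2 fold change of the members was 0.22, against 0.03 for all genes, and became -0.06 without 11F, when 57 of 87 were negative. Without 11F Cox7a2l and Atp5s were called higher and Ndufs1 and Ndufab1 lower, where 23.35% of all genes passed. Ndufab1 was then at -0.31 (edgeR adjusted p = 0.030), and Sdha no longer passed. Medians of the subunits by complex were 0.22, -0.04, 0.05, 0.27 and 0.11 from I to V with all libraries, and -0.05, -0.20, -0.22, -0.00 and -0.09 without 11F. With upper quartile scaling 4 members were higher and 2 lower, where 26.7% of all genes passed. With total counts alone 2 were higher and 3 lower, where 25.15% of all genes passed.

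**Figure D3:**
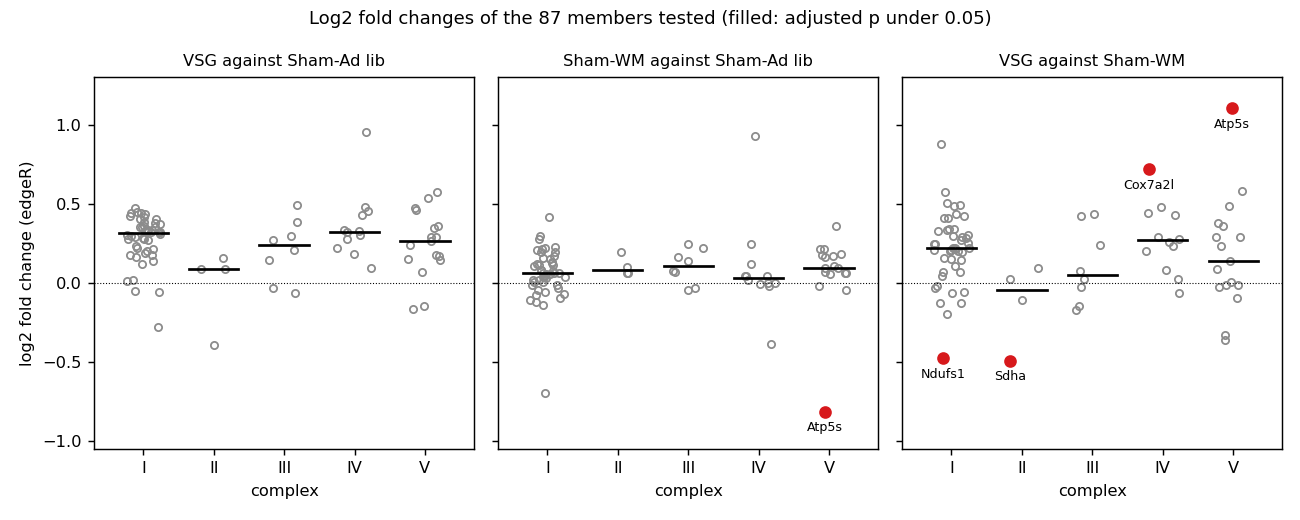
Log2 fold change of each of the 87 members tested (y axis) by complex (x axis) in the 3 comparisons, with the median over all members of a complex, assembly factors included, as a bar and members past an edgeR adjusted p of 0.05 filled and named. No member is filled for VSG against Sham-Ad lib, 1 for Sham-WM against Sham-Ad lib and 4 for VSG against Sham-WM.

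Cox7a2l (ENSMUSG00000024248, mm10 chr17:83501918-83517330, minus strand) was the clearest member. Its levels of 128, 100, 135 and 110.97 CPM in VSG were all above the 79.8, 74.4, 67.8 and 66.0 CPM of Sham-WM, and the Sham-Ad lib mean lay between, at 94.2 ± 6.78 CPM (SD, n = 4). The log2 fold change was 0.72 (SE 0.11, edgeR adjusted p = 0.0013). It remained called in 22 of 23 alternatives and was 0.65 without 11F. The call was lost when libraries were grouped by the labels' description field, with a log2 fold change of 0.23. A processed pseudogene of 201 shared bases, Gm6969, had 3.67 counts per library on average against 1669 for Cox7a2l. Atp5s (ENSMUSG00000054894, mm10 chr12:69724950-69744660, plus strand) stood at 8.54, 8.07, 8.06 and 6.43 CPM in VSG, all above the Sham-WM range and overlapping the Sham-Ad lib range. Its log2 fold change was 1.11 (SE 0.16, edgeR adjusted p = 0.0010), and 1.09 without 11F. The call held in 21 of 23 alternatives and was lost with 2 factors of unwanted variation estimated from replicates (RUVs, 0.73, edgeR adjusted p = 0.066) and when libraries were grouped by the labels' description field.

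Ndufs1 (ENSMUSG00000025968, mm10 chr1:63143596-63176833, minus strand) encodes the largest subunit of complex I, which carries iron-sulphur clusters. It was at 174, 185, 135 and 144 CPM in Sham-WM and at 93.9, 101, 120 and 143 CPM in VSG, and the groups overlapped at 1 VSG library, 18F. The log2 fold change was -0.48 (SE 0.15, edgeR adjusted p = 0.032), and the call was lost without Sham-WM 2F, Sham-WM 9F, VSG 1F or VSG 8F, with a highest edgeR adjusted p of 0.093. It was also lost with only the 2 groups compared (edgeR adjusted p = 0.061), with length and GC trends removed (-0.34, edgeR adjusted p = 0.11) and with RUVs (-0.20, edgeR adjusted p = 0.61), and held in 15 of 23 alternatives. Without 11F it was at -0.50. Its exons share 489 bases with the opposite-strand Ino80dos, which had 8.67 counts per library on average against 2480. Sdha (ENSMUSG00000021577, mm10 chr13:74322254-74350280, minus strand) was at 620, 700, 622 and 607 CPM in Sham-WM, above all 4 VSG libraries, the highest of which was 588 CPM. It fell by 0.49 on the log2 scale (SE 0.15, edgeR adjusted p = 0.028). This call was lost without Sham-WM 9F, 15F or 16F, or without VSG 1F or 11F, with a highest edgeR adjusted p of 0.077 among these, and without 11F the log2 fold change was -0.44. With RUVs it was at -0.10 (edgeR adjusted p = 0.78), and the call held in 16 of 23 alternatives.

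**Figure D4:**
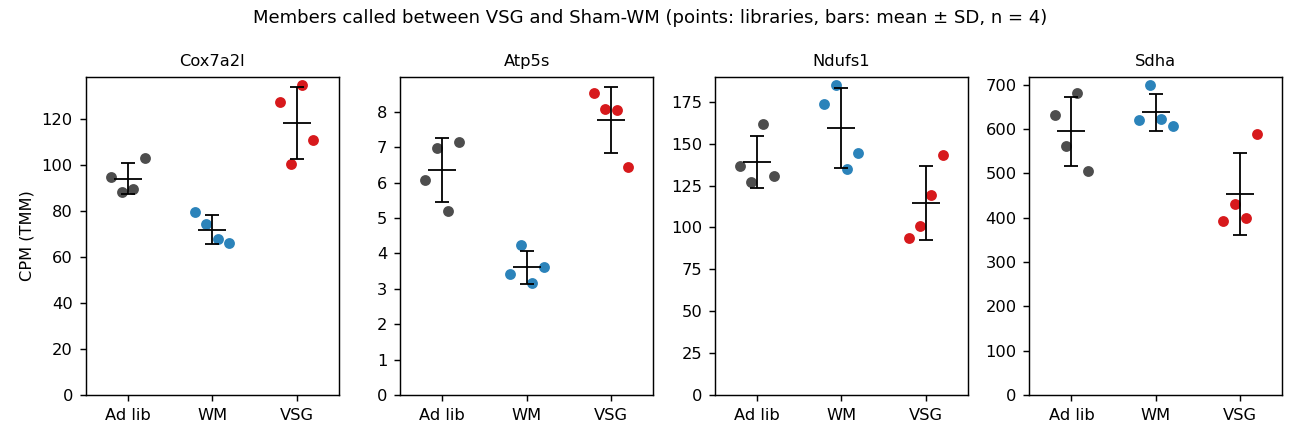
CPM of Cox7a2l, Atp5s, Ndufs1 and Sdha (y axes, from 0) in the 12 libraries by group (x axes), with the mean and SD of each group of 4. For Cox7a2l, Atp5s and Sdha no VSG library overlaps the Sham-WM libraries, while for Ndufs1 VSG library 18F, at 143 CPM, lies inside their range.

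The alpha and beta subunits of ATP synthase had negative values that did not pass. Atp5b was at 1459, 1581, 1263 and 1266 CPM in Sham-WM and at 968, 1037, 1053 and 1272 CPM in VSG (log2 fold change -0.36, SE 0.13, edgeR adjusted p = 0.059), it passed in 6 of 23 alternatives, and it was at -0.35 without 11F. Atp5a1 had a log2 fold change of -0.33 (SE 0.15) with an edgeR adjusted p of 0.12. Positive values that did not pass were seen for Ndufa7 (0.57, SE 0.20, edgeR adjusted p = 0.051), Uqcrq (0.43, SE 0.20, edgeR adjusted p = 0.12) and Cox4i1, the scaffold subunit of complex IV (0.48, SE 0.21, edgeR adjusted p = 0.10). Without 11F these were 0.27 for Ndufa7, 0.14 for Uqcrq and 0.15 for Cox4i1. Cox4i1 was at 312, 301, 278 and 297 CPM in Sham-WM and at 361, 276, 665 and 352 CPM in VSG, with 11F far above the other 11 libraries. Ndufv1, Uqcrc1, Uqcrc2, Uqcrfs1, Cox5a and Cox5b, further core subunits, had log2 fold changes between -0.17 and 0.28 here. The count of calls rested on single libraries. Without 8F, 15 members were higher and 1 lower, 18.4% of members where 25.7% of all genes passed. Without 18F 3 were higher and 4 lower, where 29.1% of all genes passed. With RUVr 26 were higher and 4 lower, or 34.5%, where 42.1% of all genes passed. The limit given above for RUVr holds for these calls too.

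Several subunits have isoforms, and these kept their ranks in every group. Cox6a1 averaged 179 CPM over the 12 libraries and Cox6a2 0.089. Cox7a2 averaged 116 CPM and its muscle isoform Cox7a1 1.04. Cox7a1 did not pass in any comparison, and against Sham-Ad lib it had log2 fold changes of 0.95 (SE 0.38, edgeR adjusted p = 0.16) in VSG and 0.93 (SE 0.38, edgeR adjusted p = 0.17) in Sham-WM, on levels of at most 2.05 CPM. The 8 markers of muscle and brown fat summed to between 35.7 and 62.0 CPM in Sham-Ad lib, 136 and 321 CPM in Sham-WM and 27.5 and 35.5 CPM in VSG. Only 1 of the 8 passed the filter on low counts, and Myh1 and Ckm were at 0, so these sums do not describe 8 markers moving together. The part of these tissues in the Cox7a1 values was not tested. Ndufa4 averaged 250.5 CPM, and Ndufa4l2, its counterpart known to rise in low oxygen, 1.86 CPM, with 32 of its exon bases shared with Shmt2 on the opposite strand. Ndufa4l2 had a log2 fold change of 0.88 (SE 0.36, edgeR adjusted p = 0.084) between VSG and Sham-WM. The genes Atp5g1, Atp5g2 and Atp5g3 encode the same mature c subunit of ATP synthase, and averaged 144, 109.3 and 348 CPM. Atp5g1 ranged from 132 to 194 CPM in Sham-WM against 117 to 134 CPM in Sham-Ad lib (log2 fold change 0.36, SE 0.19, edgeR adjusted p = 0.29).

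Summed over the rows of each complex, levels in 11F were above all other libraries in complexes I, III, IV and V. Without TMM factors, of which 11F had the lowest, this held in complexes I, III and IV, while complex V was at 5232 in 11F, below 5430 in Sham-WM 2F and 5706 in Sham-WM 9F. Complex I summed to between 2998 and 3338 CPM in Sham-Ad lib, to between 2912 and 3619 CPM in Sham-WM, and in VSG to 3324 in 1F, 2711 in 8F, 5480 in 11F and 3466 CPM in 18F. Complex IV summed to between 1587 and 1743 CPM, between 1504 and 1807 CPM, and to 1826, 1465, 3165 and 1887 CPM. Complex III was between 1253 and 1409 CPM, between 1256 and 1564 CPM, and at 1281, 1136, 2160 and 1444 CPM. Complex V, of which Atp5a1 and Atp5b made up the largest part, was between 4222 and 4866 CPM, between 4397 and 5662 CPM, and at 3987, 3826, 5960 and 4882 CPM. In complex II 11F lay level with 18F, with VSG sums of 929, 908, 1210 and 1212 CPM against 1039 to 1316 in Sham-Ad lib and 1143 to 1418 in Sham-WM. Without 11F the VSG mean against the Sham-WM mean was 0.959 for complex I, 0.814 for II, 0.909 for III, 1.03 for IV and 0.851 for V, and in each complex the ranges of both groups overlapped. These sums were not tested.

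The size of the gene product moved with the values. The coding length of the 87 members had a median of 438 bases, against 1404 bases over the 12280 coding genes tested. Over all coding genes, the median log2 fold change of VSG against Sham-Ad lib was 0.38 for the 214 genes with a coding length up to 300 bases, 0.33 for those over 300 and up to 450, 0.23 up to 600, 0.14 up to 1000, 0.00 up to 2000 and -0.14 beyond. The members followed at 0.36 (22 genes), 0.31 (24), 0.30 (17), 0.17 (11), -0.04 (12) and -0.28 (Ndufs1 alone). In 11F by itself, the median difference from the Sham-Ad lib mean over all coding genes ran from 0.90 in the shortest class to -0.32 in the longest, and over members from 1.04 to -0.21. In VSG library 1F these medians ran from 0.35 to -0.21 and from 0.18 to -0.56. Over all coding genes they ran from 0.12 to -0.03 in 18F and from 0.036 to -0.0026 in 8F. The correlation of the log2 fold change with log2 coding length across the 87 members was -0.66 (Pearson) for VSG against Sham-Ad lib, -0.57 for VSG against Sham-WM and 0.12 for Sham-WM against Sham-Ad lib. These are descriptions across genes measured in the same libraries, and without 11F the first 2 were -0.41 and -0.35. Without 11F the members' medians were below those of all coding genes in each class, for instance 0.04 against 0.18 in the shortest class for both comparisons of VSG. Trends of merged exon length and GC content, not of coding length, were also taken out of each library. The members' median was then 0.00 for VSG against Sham-Ad lib and -0.10 for VSG against Sham-WM. The members' Pearson correlation of log2 fold change with log2 coding length was still -0.27 and -0.24 in the same order. For VSG against Sham-WM 2 members were higher and 7 lower in this setting, where 26.2% of all genes passed. Those lower were Atp5b, Cox8a, Ndufc2, Sdha, Sdhd, Uqcr10 and Uqcrb. Whether length itself or another property of short messages goes with these values was not tested.

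**Figure D5:**
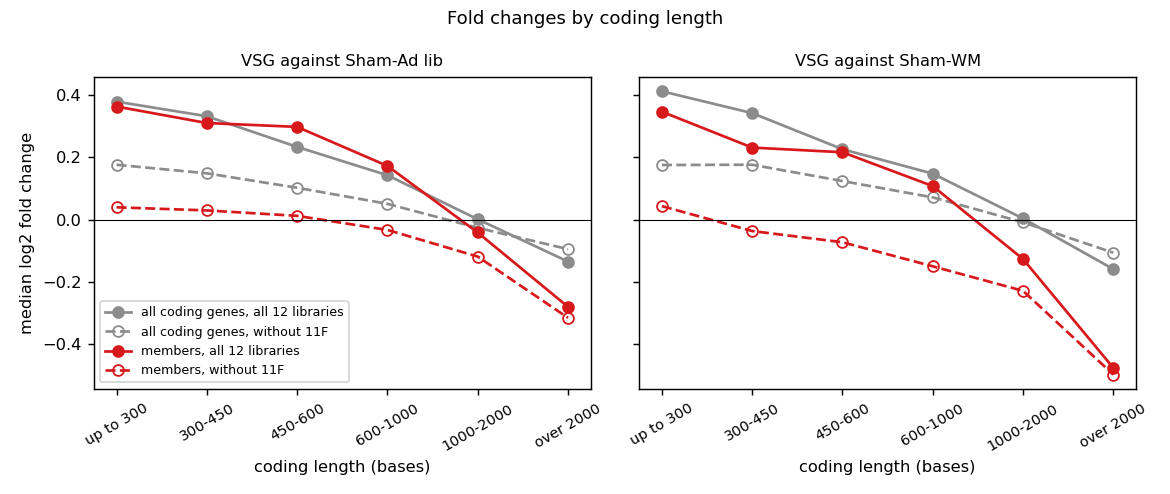
Median log2 fold change (y axis) by class of coding length in bases (x axis) for VSG against Sham-Ad lib and against Sham-WM, over all coding genes (grey) and over the members (red), with all 12 libraries (solid) and without 11F (dashed). With all libraries the members follow all coding genes from 0.36 and 0.38 in the shortest class downwards, and the last class holds 1 member.

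Genes around the complexes were read from lists, between VSG and Sham-WM unless said, where 15.0% of all genes tested were higher and 11.9% lower. Of 13 enzymes of the tricarboxylic acid cycle, which feeds electrons to complexes I and II, 5 were lower and none higher, with a median log2 fold change of -0.29 and -0.25 without 11F. Among them were Cs (citrate synthase, -0.48, SE 0.11, edgeR adjusted p = 0.0070), Idh3a (-0.51), Dlst (-0.37) and Dld (-0.36). Cs was at 158, 172, 150 and 166 CPM in Sham-WM and at 109.8, 107.3, 120.1 and 126.2 CPM in VSG, without overlap. Of 11 further assembly factors of complex I, Dmac2 was higher and Acad9 lower. Dmac2 was also lower in Sham-WM than in Sham-Ad lib (log2 fold change -0.72, SE 0.16, edgeR adjusted p = 0.017).

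Of 6 assembly factors of complex III only Uqcc3 passed, at 11.3, 12.03, 11.3 and 9.46 CPM in Sham-WM and at 22.6, 17.9, 30.5 and 18.8 CPM in VSG (log2 fold change 1.02, SE 0.16, edgeR adjusted p = 0.0013). Of 21 factors of complex IV tested, Cmc1 and Coa4 were higher and Cox15, which makes heme A, was lower. None of the 4 factors of complex II passed. Of 5 genes listed for complex V, Atpif1, the inhibitor of ATP synthase, was higher (0.83, SE 0.22, edgeR adjusted p = 0.014). Of 16 genes for cytochrome c and ubiquinone synthesis, Coq3 and Coq10b were higher and Hccs, Pdss1 and Coq8a lower. Coq8a, a kinase-like protein of ubiquinone synthesis, was at 266, 440, 290 and 290 CPM in Sham-WM, 166, 151, 168 and 231 CPM in VSG and 155 to 209 CPM in Sham-Ad lib, and it rose in Sham-WM against Sham-Ad lib as well (0.77, SE 0.18, edgeR adjusted p = 0.022).

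Among 11 regulators of mitochondrial biogenesis tested, the coactivator Ppargc1b was higher (1.08, SE 0.25, edgeR adjusted p = 0.0077) and Gabpb2 and Esrrg were lower. Ppargc1b was at 6.53, 5.47, 8.33 and 7.34 CPM in Sham-Ad lib, at 3.36, 3.02, 1.79 and 2.81 CPM in Sham-WM and at 3.76, 7.05, 5.27 and 7.11 CPM in VSG, so that Sham-WM was below every other library. Of 17 genes that maintain or transcribe mitochondrial DNA, Tefm, Mterf2 and Mterf4 were higher and Lrpprc lower. Of 7 carriers, porins and uncoupling genes tested, Ucp2 was higher (1.58, SE 0.26, edgeR adjusted p = 0.0018). Ucp2 is also known from macrophages, whose markers were higher in VSG, and the part of these cells in its value was not tested. Of 77 mitochondrial ribosome genes 7 were higher and 2 lower (median 0.20, and 0.03 without 11F), of 23 import genes 2 were higher and 1 lower (0.16 and -0.04), and of 79 genes with Rpl or Rps symbols 30 were higher and 1 lower (0.52 and 0.32). Between VSG and Sham-Ad lib no gene of these 13 lists passed edgeR's test after adjustment, where 98 of all 13054 genes did. At an unadjusted p under 0.05, where 3149 of all genes passed, there were 74 of the 79 Rpl or Rps genes, 30 of the 77 mitochondrial ribosome genes and 6 of the 21 complex IV factors, and between 1 and 5 genes in each of the other lists. Between Sham-WM and Sham-Ad lib the genes that passed were Dmac2, Coq10b and Ppargc1b, which were lower, and Cox15, Hccs, Pdss1, Coq8a, Idh3a, Mrps22 and Rpl7l1, which were higher.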

How the data were processed

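RNA sequencing counts of liver were used for 12 mice, 4 each of Sham-Ad lib, Sham-WM and VSG. The authors aligned paired reads from directional poly(A) libraries to mm10 with TopHat2 2.1.1, counted those on genes with featureCounts, and deposited whole-number counts per Ensembl gene without normalization. Whether the counting used strand is not given in the sources used here. It matters for 32 members that share exon bases with another gene, 5 of them on the same strand, and 35 have a stretch of at least 100 bases at 95% identity or more in another gene. GENCODE M21 gave symbols, positions and lengths for 45229 of 46078 rows.

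Libraries were put in groups by the animal number shared by library name and sample title. The description field pairs titles with other libraries, and grouping by it was an alternative. The numbers at the end of the library names run in 1 block per group, so any order they record and the groups cannot be told apart. Each library is 1 animal by its number.

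Fits were made with edgeR 4.0.16 under R 4.3.3 (with limma 3.58.1), and with DESeq2 1.42.0 as an alternative. Genes were kept by filterByExpr (minimum count 10, minimum total 15), which left 13054 of 46078. The quasi-likelihood test was fitted to all 12 libraries with TMM factors between 0.879 and 1.04, and p-values were adjusted by Benjamini-Hochberg over all genes tested, with 0.05 as the threshold. The test was checked on simulated data. CPM used TMM factors. The members, the lists and the motifs were chosen with earlier results of these data known, so no p is given for the members as a set. Named members were core subunits, isoform sets, up to 2 called members per complex and direction in each comparison and, where none passed, the member with the smallest p. Others were named after their values were seen, as were the Ndufa7, Ndufab1 and Atp5b results, the genes lost or gained under alternatives and all genes outside the members. Some genes are not reported here by name. Alternatives were other scalings, filters, DESeq2, RUV factors (2 each) and the removal of trends of merged exon length and GC content. Further ones were the description grouping, leaving out each library and structural subunits alone.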

Additional observations from a re-analysis of the deposited data

Results flagged for a closer look

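In 102 groups of 4 values tested, 2 had a library that lay far from the other 3 by Dixon's ratio of its gap to the whole range, and chance gives about 1 in 20. Sdhb stood at 215.5 CPM in Sham-Ad lib library 6F, where the nearest other library of the group was at 183 CPM. Sdha stood at 699.9 CPM in Sham-WM library 9F, where the nearest was at 622 CPM, and the call of Sdha between VSG and Sham-WM was lost without that library. Library 11F did not pass this limit in any of the groups tested.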

How the results depend on the processing

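The number of members called was within 1.5 times the reported one in 51 of 72 alternative fits, and the members' median moved by less than 1 SD between libraries in 68 of 72. That SD, 0.29 on the log2 scale, is itself carried by 11F and is 0.15 without it. It is about the size of the larger reported medians, so the count of 68 cannot show that they hold. The fits without 11F are among the 68, although the median went from 0.29 to 0.01 for VSG against Sham-Ad lib. For VSG against Sham-WM it went from 0.22 to -0.06. For VSG against Sham-Ad lib, 31 members were called with RUVr, where 23.1% of all genes passed. RUVr takes up spread within groups, so its counts in any comparison cannot decide whether values rest on a single library. Between 0 and 1 were called when libraries were left out in turn, where between 0% and 8.20% of all genes passed. The 1 call, Sdha without 18F, came in the fit with 8.20%. The median was 0.00077 with length and GC trends removed and -0.13 with the description grouping. For Sham-WM against Sham-Ad lib, 2 were called with DESeq2, with at least 10 counts in every library, with only the 2 groups compared, with RUVs and with length and GC trends removed, 4 with RUVr, and 0 with the description grouping and with structural subunits alone. In the settings with 2 or 4 called, between 6.08% (DESeq2) and 16.8% (RUVr) of all genes fitted passed. Leaving out libraries gave between 1 and 2, where between 3.19% and 9.89% of all genes passed, and the description grouping a median of -0.24. For VSG against Sham-WM, 7 were called with DESeq2, 1 with RUVs, 30 with RUVr and 9 with length and GC trends removed (median -0.10). The shares of all genes fitted that passed in these 4 settings were 18.1%, 3.97%, 42.1% and 26.2%. The description grouping gave 0, and leaving out libraries gave between 2 (without Sham-WM 9F or VSG 1F) and 16 (without VSG 8F). In the fits that left out a library between 16.5% and 29.1% of all genes passed. Under the description grouping no gene of the table passed in any comparison, Atp5s was at 0.16 for Sham-WM against Sham-Ad lib and at -0.0027 for VSG against Sham-WM, the opposite signs. With length and GC trends removed, Cox8a and Uqcrb were lower in VSG than in Sham-WM, at -0.38 and -0.37, where the reported values were above 0. In 193 further alternatives a named member that was called in neither fit had the other sign. The 150 alternatives for the summed levels of the complexes stayed within 1 SD, which says little for VSG, since 11F carries the SD of the VSG sums (1202 CPM for complex I with it and 401 without). The cause of these changes was not tested. With 4 libraries a group and a median SE of 0.19, log2 changes in members of about the size of the reported medians could not be called.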
